A study of Homo sapiens with 4 samples.

Results

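The genes of enzymes that methylate, demethylate and deacetylate histones were examined for IRF3 binding in MM1.S cells. The set held every protein-coding gene of the RefSeq GRCh38 gene table whose symbol begins with KDM and a digit up to 8, with KMT2 or with SETD and a digit, or that is HDAC or SIRT followed by its number. This gave 52 of 20037 protein-coding genes, in 5 classes of 20 KDM, 5 KMT2, 9 SETD, 11 HDAC and 7 SIRT genes. The rule uses gene symbols and no measured value, but it was written with earlier results of these data known. MM1.S, an established line of human myeloma cells, stands in for the malignant plasma cell. It was grown untreated, and chromatin fixed with formaldehyde and sheared was precipitated with an antibody to IRF3 and sequenced. The series comprised 4 samples, with 2 IRF3 ChIP libraries and 2 input libraries of the same untreated line. Whether the replicates were separate cultures is not stated in the labels, so their spread may be technical only.

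IRF3 is a transcription factor that waits in the cytoplasm of resting cells and, once phosphorylated downstream of nucleic-acid sensors, enters the nucleus to activate interferon genes. KMT2 and SETD proteins carry a SET domain that transfers methyl groups to lysine, and the KMT2 and SETD1 enzymes write methylation of H3K4 at promoters and enhancers as part of the COMPASS complexes. KDM proteins remove methyl groups, through a flavin-dependent reaction in the KDM1 pair and through a Jumonji domain in the rest. HDAC proteins of the zinc-dependent type and the NAD-dependent sirtuins remove acetyl groups from histones and other proteins, and inhibitors of the zinc-dependent type have been used to treat myeloma.

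The replicates held 41880 and 41666 peaks, called by the authors from 38568845 and 46474586 ChIP tags against input libraries of 58025919 and 60348415 tags. A place where a peak of replicate 1 overlapped a peak of replicate 2 by at least 1 bp is called a shared region below, and there were 32246. Fold enrichment is the authors' own value for each peak and is the ratio of ChIP to local input at the peak's summit, its highest point. A gene was counted when a shared region had a summit of each replicate inside the window named. The cell type label was set against peaks at marker genes, which show binding and not expression. All 8 plasma cell markers examined had a shared region at a gene end, IRF4 the strongest with 20.1-fold in replicate 1 and 52.4-fold in replicate 2, while none of 4 B cell markers and none of 3 monocyte markers had such a region. Among 3 T cell markers CD3E had a weak region of 2.50 and 2.63.

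Promoter sequence was read for the 48 members with a start in the RefSeq promoter table of GRCh38.p14, and 5 promoters are printed because the strongest regions, or regions with summits close to the start, lay on them. Each line gives the 250 bases before the annotated start, 5′ to 3′ on the gene's strand, and capitals mark the motif letters named after each.
SETD5, chr3:9397365-9397614, plus strand: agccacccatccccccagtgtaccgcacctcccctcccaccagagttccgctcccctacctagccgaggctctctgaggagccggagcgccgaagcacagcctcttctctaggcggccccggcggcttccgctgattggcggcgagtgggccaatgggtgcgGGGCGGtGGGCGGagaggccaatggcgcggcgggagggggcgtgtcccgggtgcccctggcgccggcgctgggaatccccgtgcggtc
KDM4C, chr9:6757723-6757972, plus strand: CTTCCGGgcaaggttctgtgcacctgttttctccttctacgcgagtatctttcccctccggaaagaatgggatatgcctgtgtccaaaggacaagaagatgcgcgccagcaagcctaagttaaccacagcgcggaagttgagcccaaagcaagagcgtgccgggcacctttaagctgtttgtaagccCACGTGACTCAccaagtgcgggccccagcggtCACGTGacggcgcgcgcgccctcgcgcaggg
SIRT6, chr19:4182564-4182813, minus strand: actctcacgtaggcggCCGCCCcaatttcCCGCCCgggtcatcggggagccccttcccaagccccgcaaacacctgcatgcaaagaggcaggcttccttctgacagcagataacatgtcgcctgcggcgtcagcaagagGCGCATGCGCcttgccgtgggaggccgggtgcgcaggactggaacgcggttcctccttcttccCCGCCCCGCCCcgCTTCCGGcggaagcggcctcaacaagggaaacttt
SETD4, chr21:36060527-36060776, minus strand: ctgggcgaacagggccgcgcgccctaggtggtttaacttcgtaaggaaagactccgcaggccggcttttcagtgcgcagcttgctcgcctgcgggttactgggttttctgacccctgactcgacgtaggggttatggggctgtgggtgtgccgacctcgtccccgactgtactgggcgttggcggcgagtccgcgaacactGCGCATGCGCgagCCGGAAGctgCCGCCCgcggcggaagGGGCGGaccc
HDAC7, chr12:47819904-47820153, minus strand: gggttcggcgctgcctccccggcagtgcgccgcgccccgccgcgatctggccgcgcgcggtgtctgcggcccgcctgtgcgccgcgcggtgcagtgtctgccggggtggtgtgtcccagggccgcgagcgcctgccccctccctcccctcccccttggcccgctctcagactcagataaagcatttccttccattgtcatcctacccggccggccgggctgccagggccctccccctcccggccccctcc
The capitals in SETD5 are 2 copies of the SP/KLF box GGGCGG. Those in KDM4C are 1 ETS word CCGGAAG on the opposite strand, 2 E-boxes CACGTG and 1 AP-1 word TGANTCA that overlaps the upstream E-box. SIRT6 carried an NRF1 word (GCGCA joined to TGCGC), an ETS word and 4 SP/KLF boxes, of which 2 run into each other. SETD4 carried the same 3 kinds, with 2 SP/KLF boxes. The HDAC7 stretch held none of the 9 motifs searched, although it lay under a shared region of 9.04 and 7.17 in replicates 1 and 2. Summits lay inside the printed stretch in both replicates at SIRT6 (182 and 179 bases before the start), SETD4 (147 and 135) and HDAC7 (183 and 213). At KDM4C they lay 258 and 226 bases before the start, and at SETD5 274 and 284, just upstream of the printed bases.

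IRF3 regions lay at most of these enzyme genes. In the gene span plus 1 kb, 47 of 52 members (90.4%) had a shared region, where 62.0% of all protein-coding genes had one. Within 1 kb of either end of the gene, a window that does not grow with gene length, the count was 39 (75.0%), against 49.8% of all genes. Within 1 kb of an annotated start it was 43 of the 48 members with a start in the table (89.6%), against 54.3%. At a fold enrichment of at least 5 in both replicates at a gene end it was 24 (46.2%), against 28.4%. The members' share was thus above the background in each of these windows. The background includes every protein-coding gene, active in these cells or not.

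The classes differed in these counts, and no test sets them against each other because genes are not replicates. All 5 KMT2 genes, all 9 SETD genes and all 7 SIRT genes had a shared region in the span plus 1 kb, compared with 17 of 20 KDM genes and 9 of 11 HDAC genes. At a gene end the counts were 5 KMT2, 8 SETD, 6 SIRT, 13 KDM and 7 HDAC genes. At a fold enrichment of at least 5 in both replicates, all 5 KMT2 and 6 of 7 SIRT genes were left, with 3 of 9 SETD (33.3%), 6 of 20 KDM and 4 of 11 HDAC genes (36.4%). The shares of the last 3 classes were near the 28.4% of all protein-coding genes. KMT2 and SIRT genes therefore stood above the other classes at this limit, and SETD genes had a region at nearly every gene but mostly under that fold. Some genes sat close to the limit in replicate 1. KMT2B (5.17) and KDM3B (5.02) passed it, while KDM5A (4.98) and KDM5C (4.99) did not. The 14 SET domain genes of the KMT2 and SETD classes together had 13 with a region at an end, of which 8 passed the fold of 5.

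**Figure D1:**
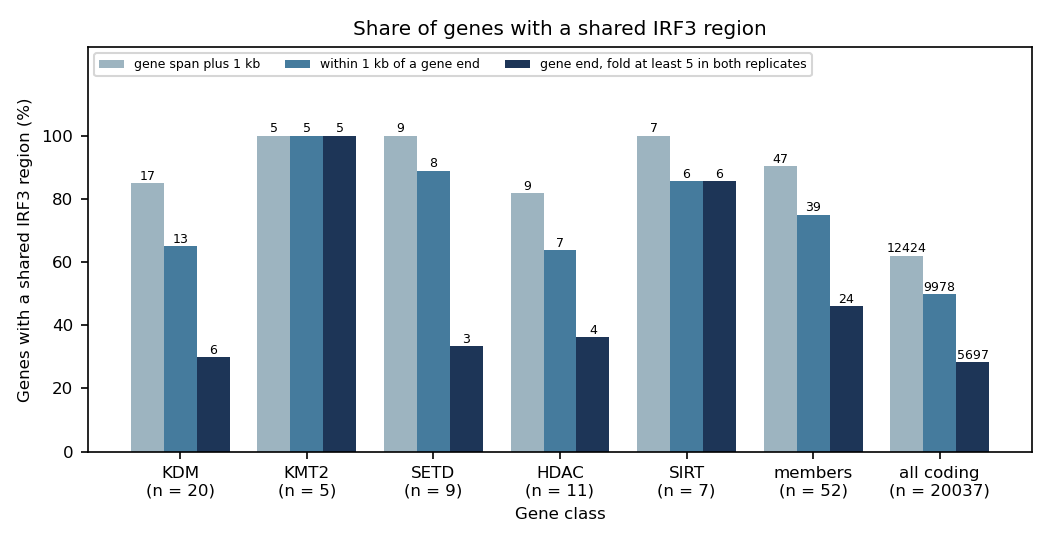
Bars give the percentage of genes in each class with a shared IRF3 region in the gene span plus 1 kb, within 1 kb of a gene end, and at a gene end with a fold enrichment of at least 5 in both replicates, and the figure over each bar is the number of genes. The KMT2 bars stay at 5 of 5 genes throughout and the SIRT bars end at 6 of 7, while the SETD bars drop from 9 to 3 genes.

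The members were longer than the background genes, and a longer span can hold more regions. The median member was 42.2 kb long, against 24.1 kb for all protein-coding genes. Within classes of length, the span plus 1 kb held a shared region in 13 of 15 members under 25 kb, against 47.9% of all genes of that length. It did so in 23 of 25 members of 25 to 100 kb, against 73.4%, and in 11 of 12 members over 100 kb, against 82.7%. The gap to the background was thus widest for the short genes. SIRT genes, which were short with a median of 21.5 kb, and KMT2 genes, which were long with a median of 90.3 kb, both had a region in every member.

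Strength of the regions was close to that of the background for the set as a whole and higher for these same classes. The best-ranked region of each member in the span plus 1 kb had a median fold enrichment of 6.36 in replicate 1 and 9.08 in replicate 2, against 5.65 and 8.02 for all protein-coding genes with a region. By class, the medians were 8.82 and 13.9 for KMT2, 8.72 and 12.6 for SIRT, 6.89 and 8.66 for HDAC, 5.34 and 9.08 for KDM, and 5.31 and 8.93 for SETD. Each gene was also placed on a scale of strength from 0 to 100, the share of all protein-coding genes with a region whose best region ranked below its own. The median place was 88.8 for KMT2 and 87.9 for SIRT, and 51.8 for HDAC, 47.8 for KDM and 47.8 for SETD. The 5 KMT2 genes ranged from 43.1 to 99.3 on this scale and the 9 SETD genes from 16.5 to 99.5, so the classes overlapped broadly. On a like scale for regions at annotated starts only, places were 99.2 (KMT2E), 88.0 (KMT2C), 58.2 (KMT2D), 47.0 (KMT2B) and 41.9 (KMT2A). The high KMT2 median in the span thus depends on the region at the other end of KMT2D. For SIRT genes these places were 98.5 (SIRT4), 87.5 (SIRT1), 87.1 (SIRT6), 82.1 (SIRT5), 66.7 (SIRT3) and 40.6 (SIRT2). Replicate 2 had the higher fold enrichment in 41 of the 47 members (87.2%), much as in 84.9% of all protein-coding genes with a region.

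**Figure D2:**
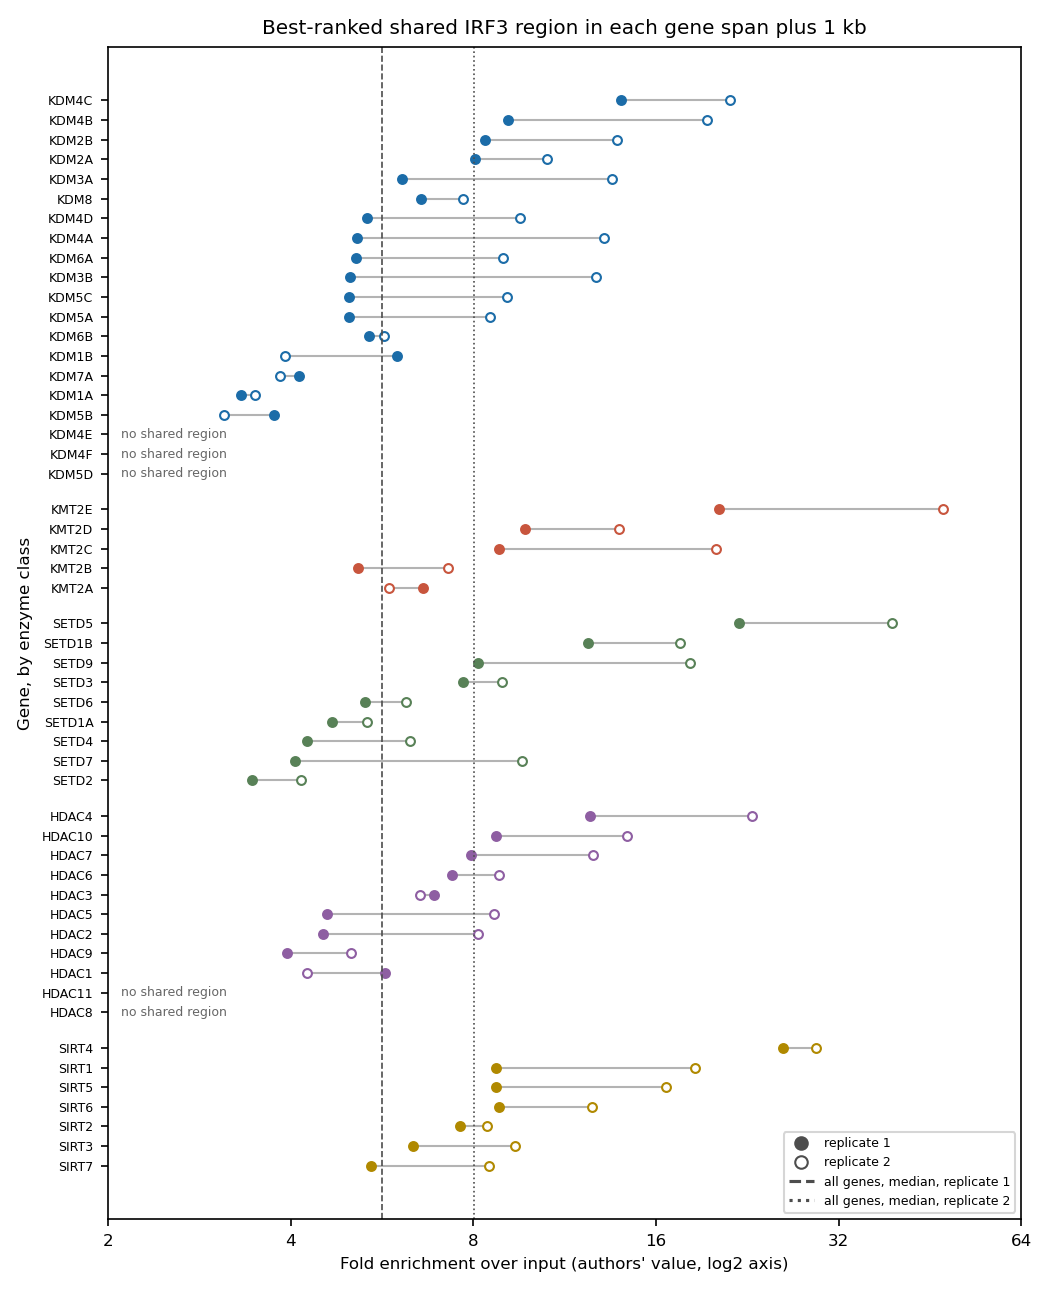
Fold enrichment over input of the best-ranked shared region in each gene span plus 1 kb, on a log2 axis, with replicate 1 as filled and replicate 2 as open circles and the medians of all protein-coding genes as vertical lines. KMT2E, SETD5, SIRT4, HDAC4 and KDM4C stand to the right in both replicates, and 5 genes have no shared region.

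Among the KMT2 genes, KMT2E had the strongest region. KMT2E encodes a SET domain protein that binds methylated H3K4 but has no established methyltransferase activity. Its region (chr7:105011555-105015898) reached an enrichment of 20.3 in replicate 1 and of 47.5 in replicate 2, and at 4344 bp it was the longest of all member regions. The summits lay 722 and 764 bp before the KMT2E start, 658 bp from the end of the antisense gene KMT2E-AS1. KMT2C and KMT2D encode the enzymes known for monomethylation of H3K4 at enhancers. KMT2C had 8.82 and 20.1 at a region 417 and 435 bp before its start (chr7:152436137-152437174), and a second region 202 and 179 bp after it with 5.14 and 8.12. KMT2D had its stronger region, 9.73 and 13.9, at the other end of the gene (chr12:49017788-49019244), 131 bp from an end of a neighbouring gene, where PRKAG1 and DDN-AS1 lie, and 5.80 and 7.45 at its own start (chr12:49059972-49061195). The start of KMT2D thus ranked well below its 3′ end in both replicates.

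KMT2A and KMT2B, which encode the menin-associated H3K4 methyltransferases, had the weaker regions of the class. KMT2A had 6.60 in replicate 1 and 5.81 in replicate 2 (chr11:118435364-118436884), with summits 734 bp apart, 707 bp before the start in replicate 1 and 27 bp after it in replicate 2. KMT2B had 5.17 and 7.27 (chr19:35716699-35718477), 83 and 160 bp after its start. Within 500 bp of a gene end rather than 1 kb, 3 KMT2 genes were counted, because summits at KMT2A in replicate 1 and at KMT2E in both replicates lay farther out.

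SETD5 had the best-ranked region of the whole set. SETD5 encodes a SET domain protein of chromatin whose loss causes intellectual disability. Its region (chr3:9395925-9398228), on the GC-rich promoter printed above, reached 21.9 in replicate 1 and 39.2 in replicate 2, with summits 10 bp apart and 153 bp from an end of THUMPD3-AS1. SETD1A and SETD1B encode the catalytic subunits of the main H3K4 trimethylating complexes. SETD1B reached 12.4 and 17.5 inside the gene (chr12:121802575-121804763), 43 bp from an end of the long non-coding gene LINC01089, and only 2.90 and 4.51 at its own end. SETD1A had 4.69 and 5.34 (chr16:30956893-30958690), 352 and 387 bp after the start. The pair therefore shared a modest signal at gene ends, and the highest value at SETD1B lay inside the gene beside an end of another transcript. Another SETD1B region inside the gene (chr12:121799801-121802402) had 7.02 and 13.0, with no other gene end within 1 kb. SETD1B had no start in the promoter table, so inner starts of its own could not be placed.

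The other SETD genes ran from strong to weak. SETD9, a little-studied member, had 8.13 and 18.2 at its start (chr5:56909021-56910872). SETD3, the methyltransferase of a histidine in actin, had 7.69 and 8.93 upstream of an inner start (chr14:99481223-99481796), 42 bp from an end of the cyclin gene CCNK. SETD6, SETD4 and SETD7 had 5.31 and 6.20, 4.25 and 6.28, and 4.07 and 9.61 in the 2 replicates. SETD7, which encodes a monomethyltransferase of H3K4 and of non-histone proteins, showed the widest gap between the replicates' summits among the SETD genes, 986 bp within one long region (chr4:139554994-139557685). SETD2, the enzyme that trimethylates H3K36, came last of the class with 3.46 and 4.16 (chr3:47163018-47164989). Values at SETD2 in both replicates lay below the medians of all protein-coding genes.

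The KDM class spread from KDM4C down to genes with no peak. KDM4C encodes a Jumonji demethylase of trimethylated H3K9. Its region (chr9:6756735-6758922), on the promoter printed above, reached 13.99 in replicate 1 and 21.2 in replicate 2 and lay at an annotated start inside the gene span, so it did not count at a gene end. KDM4B, its close relative, had 9.13 and 19.5 at 46 and 60 bp after the start (chr19:4968900-4969540). KDM4A had 5.13 and 13.1 (chr1:43649587-43650885), and KDM4D 5.34 and 9.53 with summits 25 bp from an end of CWC15 at the nearest (chr11:94973262-94973985). The 4 occupied KDM4 genes were thus all higher in replicate 2.

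KDM2A and KDM2B encode H3K36 demethylases with a CXXC domain that binds unmethylated CpG. KDM2A had 8.05 and 10.6 at an inner start (chr11:67239464-67241380) and 4.87 and 4.78 at its outer start. KDM2B had 8.35 and 13.8 inside the gene, 42257 and 42225 bp from the nearest start (chr12:121535692-121538757), and 3.40 and 5.69 at a start (chr12:121580229-121580716). In both genes the best-ranked region thus lay away from the ends of the span. KDM3A and KDM3B, demethylases of lower H3K9 methylation, had 6.11 and 13.5, and 5.02 and 12.7, among the widest gaps between the replicates, and KDM8 had 6.57 and 7.70.

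The demethylases of H3K4 and H3K27 had middling or low values. KDM5A and KDM5C, which remove H3K4 trimethylation, had 4.98 and 8.54, and 4.99 and 9.08 (chr12:388525-389950 and chrX:53224934-53225821). Their summits lay 276 bp from an end of CCDC77 and 211 bp from an end of IQSEC2. KDM5B had 3.75 in replicate 1 and 3.11 in replicate 2 (chr1:202808177-202808663), the lowest place of all occupied members. KDM1A, which encodes the flavin-dependent demethylase LSD1, had 3.31 and 3.50 (chr1:23019018-23019934). Both of these genes lay below the medians of all protein-coding genes in each replicate. KDM1B had 5.99 and 3.92 inside the gene and 3.33 and 3.38 at its start, and KDM7A 4.13 and 3.84.

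KDM6A and KDM6B encode the demethylases of H3K27, of which KDM6A is recurrently mutated in myeloma. KDM6A had 5.12 and 8.96 at its start (chrX:44872312-44874094). KDM6B was the only member with a shared region and none at a gene end or an annotated start. It had 3 regions inside the gene, the best with 5.38 and 5.70 (chr17:7841607-7845309) and summits 2667 bp apart, and a peak of replicate 2 alone, 738 bp from its start, with 2.86.

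In the HDAC class the class I genes, which encode the deacetylases of the nuclear corepressor complexes, had moderate regions. HDAC1 had 5.71 in replicate 1 and 4.25 in replicate 2 (chr1:32291559-32292525), HDAC2 4.52 and 8.15 (chr6:113970664-113971810) and HDAC3 6.89 and 6.53 (chr5:141636523-141637544), all at their starts. HDAC3 also had a weaker region of 2.98 and 3.84 inside the gene. Values for HDAC1 and HDAC3 were higher in replicate 1, against the usual direction. HDAC8, the remaining class I gene, had no shared region and a peak of replicate 2 alone, with 4.19 at 125 bp from its start.

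The class IIa genes, which encode deacetylases that shuttle between nucleus and cytoplasm, held 20 of the 28 shared regions of the HDAC class. HDAC4 and HDAC9 are long genes, while HDAC5 and HDAC7 are near the median length of the members. HDAC4 had 12.5 and 23.0 at a start (chr2:239399428-239402228), 89 bp from an end of HDAC4-AS1, and 6 shared regions in all. HDAC7 had 7.93 and 12.6 inside the gene (chr12:47812524-47814370) and 9.04 and 7.17 on the inner promoter printed above (chr12:47818666-47820469). HDAC5 had 4.60 and 8.66 at a gene end, and HDAC9 3.94 and 5.02 at an inner start (chr7:18494835-18496837). Of these 4 genes only HDAC4 and HDAC5 had a region at an end of the span. At HDAC9 the outer end had a peak of replicate 2 alone, with 3.79.

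HDAC6 and HDAC10 form class IIb, and HDAC6 is the main deacetylase of tubulin. HDAC6 had 7.38 and 8.81 at 181 and 214 bp after a start (chrX:48802063-48802526) and a second region with 3.64 and 6.34. HDAC10 had 8.71 and 14.4 at the end of the gene (chr22:50244144-50245591), 173 bp from an end of TUBGCP6, and 3.56 and 5.08 at its start (chr22:50250770-50251619). HDAC11, the class IV gene, had no shared region. It had 2 peaks of replicate 2 alone, with 5.26 at 367 bp and 3.05 at 86 bp from its start.

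Among the sirtuin genes, SIRT4, which encodes a mitochondrial enzyme, had the highest values, in a region that also covers other genes. Its region (chr12:120291078-120293499) had 25.9 in replicate 1 and 29.4 in replicate 2 and covered both U4 small nuclear RNA genes, RNU4-1 and RNU4-2. The summit of replicate 1 fell within RNU4-1 and that of replicate 2 lay 33 bp from RNU4-2, so the summits stood 1419 bp apart. The U4 genes are near-identical copies, between which an aligner can misplace reads, so the SIRT4 value is uncertain. The other SIRT4 start had no shared region and a peak of replicate 1 alone, with 2.62 at 135 bp.

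The other sirtuins ranged from 5.43 to 8.82 in replicate 1 and from 8.43 to 18.6 in replicate 2. SIRT1, a nuclear deacetylase of histones and p53, had 8.73 and 18.6 at 171 and 104 bp after its start (chr10:67884194-67885472), with no other gene end within 1 kb. SIRT6, a chromatin-bound deacetylase of H3K9, had 8.82 and 12.6 on the promoter printed above, 53 bp from an end of ANKRD24. SIRT5, a mitochondrial desuccinylase, had 7.79 and 15.1 at its start (chr6:13574089-13575545) and 8.72 and 16.6 at its other end beside NOL7 (chr6:13614488-13615784). SIRT7, a nucleolar enzyme, had 5.43 and 8.50 at the end shared with MAFG (chr17:81917677-81918340) and 3.28 and 5.27 at the end shared with PCYT2. SIRT2, mainly cytoplasmic, had 7.60 and 8.43 beside RINL and 4.79 and 6.86 upstream of its start, beside NFKBIB, while SIRT3, mitochondrial, had 6.36 and 9.36 upstream of its start, 115 bp from an end of PSMD13. The best-ranked region of each sirtuin was thus above a fold of 5 in both replicates.

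Neighbouring genes were close to many of these regions, most of all in the SIRT class. A further gene of any type had an end or start within 1 kb of the best region's summit in 6 of 7 SIRT genes, 6 of 9 SETD, 3 of 5 KMT2, 3 of 9 HDAC and 5 of 17 KDM genes. Over all members this was 23 of 47 (48.9%), against 40.6% of all protein-coding genes with a region. A protein-coding neighbour was that close in 5 of 7 SIRT genes and 14 of 47 members (29.8%), against 25.3%. When regions nearer to an end of another protein-coding gene were left out, 4 SIRT genes kept a region at an end, and 35 members in all. Whether IRF3 at such shared stretches acts on either gene was not tested.

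The regions of the members lay mainly at annotated starts. Of 92 shared regions, 51 lay within 1 kb of a start, 8 at a gene end that was not such a start and 33 inside the gene. Regions at starts had a median fold enrichment of 5.17 in replicate 1 and of 7.70 in replicate 2, against 6.51 and 8.58 for the 8 at other gene ends and 3.80 and 3.91 for those inside genes. The best-ranked region was at a start in 36 of 47 members, at another gene end in 6 (KMT2D, SIRT5, HDAC10, SIRT2, SIRT7 and HDAC5) and inside the gene in 5 (SETD1B, KDM2B, HDAC7, KDM6B and KDM1B). These splits by place are not given for all protein-coding genes, so they do not set the members apart. KDM4E, SETD1B, HDAC5 and SIRT7 had no start in the promoter table, so their regions could be placed only by the gene ends. The summits of the 2 replicates lay a median of 48 bp apart in member regions and within 100 bp in 68.5%, against 46 bp and 77.0% over shared regions at all protein-coding genes.

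Summits lay mostly in the first 200 bp after the start or from 101 to 400 bp before it. For this, 33 members with a single annotated start and a region there were compared with 6046 such protein-coding genes. In each replicate 16 members (48.5%) had the summit 0 to 200 bp after the start, against 60.2% of all genes in replicate 1 and 62.6% in replicate 2. Between 101 and 400 bp before the start were 8 members in replicate 1 and 9 in replicate 2, against 23.4% and 20.5% of all genes. None of these 33 members had a summit in the last 100 bp before the start in either replicate, where all genes had 3.21% and 1.80%. Members with several starts, left out here, did have summits there. They were KDM3A (22 bp, replicate 2), HDAC4 (59 and 90 bp, at an inner start) and HDAC6 (100 bp, replicate 1). The stretch just before the start was thus sparse in all genes with a single start as well as in these 33 members. KMT2C, KMT2E and, in replicate 1, KMT2A had summits more than 400 bp upstream, as did KDM5A, SETD3 and SIRT2.

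**Figure D3:**
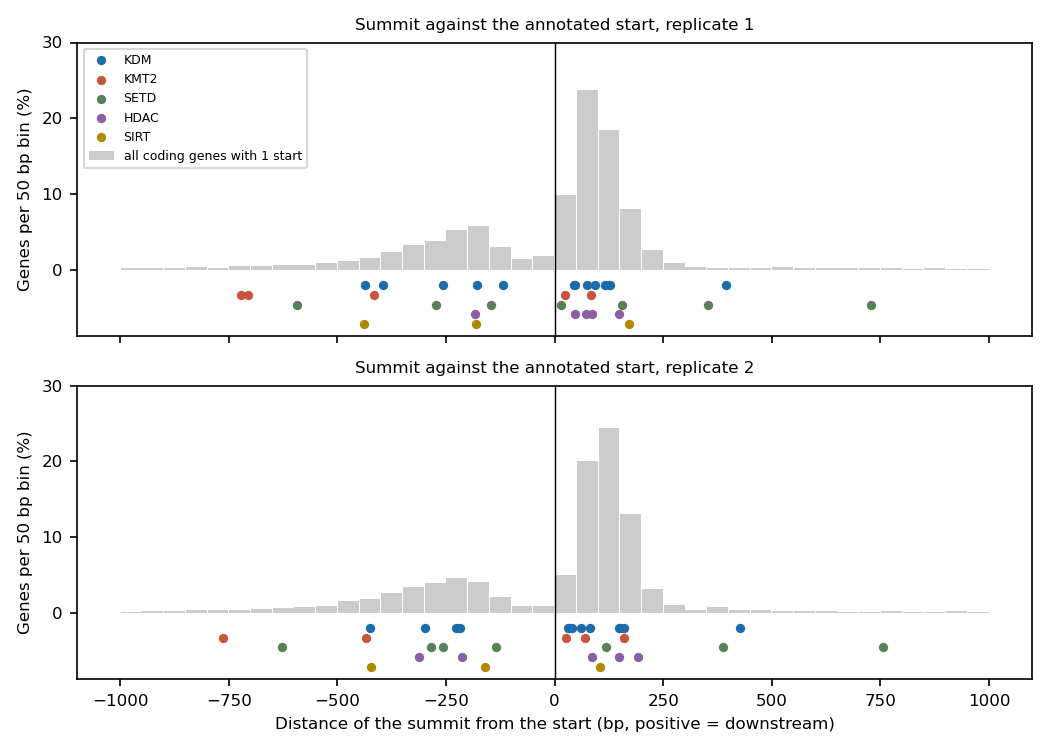
Distance of the summit from the annotated start in base pairs, positive downstream, for 33 members with a single annotated start (points by class, drawn below 0 for clarity) over the distribution of 6046 protein-coding genes (grey bars, percentage per bin), in replicates 1 and 2. Points gather in the first 200 bp after the start and from 101 to 400 bp before it, and none lie in the 100 bp before the start.

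The number of regions grew with gene length. HDAC9, the longest member, had 8 shared regions, HDAC4 had 6, and HDAC7, SETD1B and KDM2A had 4 each. Members over 100 kb had a mean of 2.83 regions, close to the 2.73 of all genes of that length. Members under 25 kb had 1.40 against 0.602, and those of 25 to 100 kb had 1.48 against 1.27. Among members of 25 to 100 kb, HDAC7 and SETD1B had the most regions, with 4 in genes of 38.6 and 42.5 kb. Among those under 25 kb it was KDM6B and SIRT2, with 3 regions in genes of 20.6 and 21.1 kb. HDAC8 had none in 243 kb. KDM4B, at 184 kb, had 1 region, its start.

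**Figure D4:**
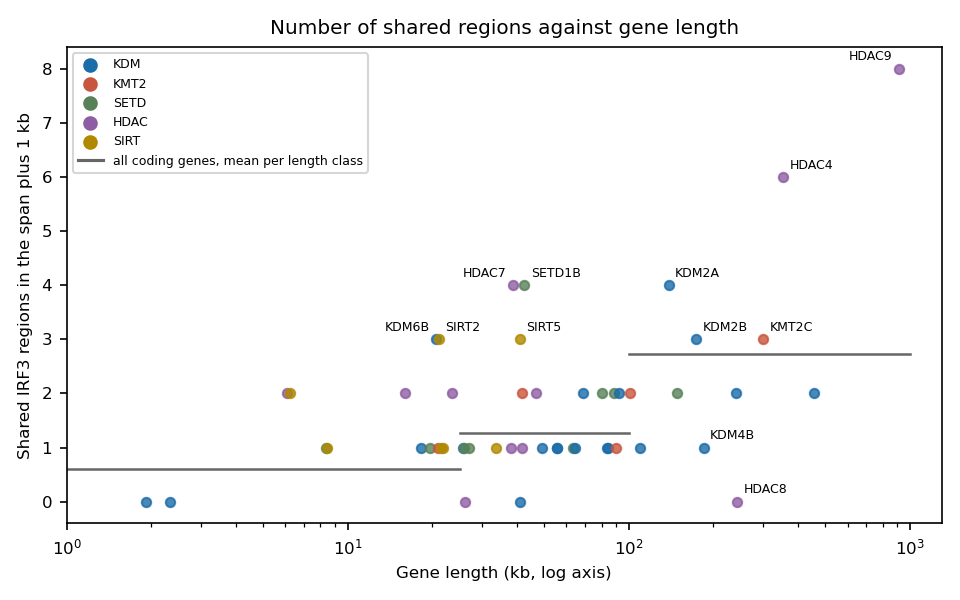
Number of shared IRF3 regions in the span plus 1 kb of each member against gene length in kb on a log axis, with the mean of all protein-coding genes in 3 classes of length as horizontal lines. HDAC9 with 8 and HDAC4 with 6 regions lie at the right, HDAC7 and SETD1B with 4 regions lie above genes of like length, and HDAC8 lies at 0.

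Genes without a shared region were few. KDM4E and KDM4F, short relatives of KDM4D, and KDM5D, on the Y chromosome, had no peak in either list. With HDAC8 and HDAC11 they made up the 5 members not occupied. KDM4E, KDM4F and KDM5D were the only 3 KDM genes without a shared region, so the lower KDM count in the span rests on them. Without them, 47 of 49 members (95.9%) had a shared region in the span plus 1 kb. Whether these cells carry a Y chromosome was not examined, so the lack of a peak at KDM5D need not mean a lack of binding. KDM2B, KDM3A, KDM4C, KDM6B, SETD3, HDAC7, HDAC9 and SIRT4 had a shared region but none at an end of the span, and all of them except KDM6B had one at an annotated start inside the span. Counting an annotated start as well as an end, 46 members (88.5%) had a region, against 53.2% of all protein-coding genes. This was all 5 KMT2, all 9 SETD, all 7 SIRT, 16 of 20 KDM and 9 of 11 HDAC genes.

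Peaks seen in a single replicate were weak. There were 27 peaks of replicate 1 alone in 15 members, with a median fold enrichment of 2.89 and a highest value of 4.81, inside HDAC9. There were 16 of replicate 2 alone in 14 members, with a median of 3.47 and a highest value of 5.52, at 516 bp from the start of KDM1B. HDAC4 held 5 of those of replicate 1 and 1 of those of replicate 2, and KDM6A held 4 and 1. The single-replicate peaks thus sat mainly in members that had shared regions as well, as 47 of the 52 members did. Over all peaks, 80.5% of those of replicate 1 and 79.2% of those of replicate 2 lay in shared regions. These counts therefore do not set the members apart.

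Promoters of the members were somewhat richer in CpG than the background. Over 70 promoters of 48 members, reaching from 250 bases before to 50 bases after the start, the median GC content was 65.8%, against 62.3% in 22199 promoters of all protein-coding genes. The ratio of observed to expected CpG was 0.852 against 0.737. KMT2 promoters had the highest median GC content of the classes, 76.3%, and HDAC promoters the lowest, 61.2%. SIRT and SETD promoters had the same median of 69.3%. Among KMT2 genes GC content was 69.0% (KMT2E), 65.0% (KMT2D), 88.7% (KMT2C), 83.3% (KMT2B) and 76.3% (KMT2A). The best regions of KMT2D, SIRT2 and SIRT5 lay at another gene end and not at these promoters, and SIRT7 and SETD1B had no promoter in the table. The part of GC content in the strength of the regions was not tested.

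Letters of an IRF site were rare in these promoters. In the same 300-base window, on both strands, the IRF word (GAAA, any 2 bases, GAAA) was found in 1.43% of member promoters, against 3.17% of all promoters. The ETS-IRF word (GGAA, any 2 bases, GAAA) was found in 4.29% against 2.52%, and the IRF and ETS-IRF words cannot match at the same position of a strand. These are shares of promoters and not of sites, and the same HDAC6 site was counted for overlapping promoters of that gene. These matches lay in 3 genes, and each is printed with 20 bases on either side, in 5′ to 3′ direction on the gene's strand, with the match in capitals.
HDAC6, chrX:48801819-48801868, plus strand: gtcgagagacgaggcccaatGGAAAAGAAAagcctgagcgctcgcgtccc
SETD7, chr4:139556278-139556327, minus strand: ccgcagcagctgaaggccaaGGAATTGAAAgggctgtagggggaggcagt
SIRT4, chr12:120302112-120302161, plus strand: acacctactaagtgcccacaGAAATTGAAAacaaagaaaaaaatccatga
The SETD7 match began 88 bases before the start, inside the shared region of 4.07 and 9.61 and 170 bp from the nearest summit. The HDAC6 match, 110 bases before a start, lay between its shared regions, 342 bp from the nearest summit. The SIRT4 match, 189 bases before the inner start, lay 8987 bp from the nearest summit of the gene's shared region. Only 1 of the 3 matches was thus inside a shared region, and the printed promoters of SETD5 and KDM4C, at 2 of the strongest regions, held neither word. Summits of both replicates lay inside this 300-base window in 9 of 70 member promoters (12.9%), against 6.96% of all promoters. The letters under most summits were therefore not read, and the shares above do not describe them. A match in this window is a description of the letters and not a binding site.

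Other motifs were found in the members about as often as in the background, with a few exceptions in small numbers. The SP/KLF box GGGCGG was in 65.7% of member promoters against 56.3% of all, the ETS word CCGGAAG in 15.7% against 12.8%, the E-box CACGTG in 10.0% against 8.34% and the AP-1 word TGANTCA in 7.14% against 6.15%. The CREB word TGACGTCA was in 1.43% against 2.26%. The YY1 word (AAGATG joined to GCGG) was in 2.86% against 1.68%, at KDM5C and KMT2B. The NRF1 word was in 5.71% against 1.50%, in the promoters of SETD4, SIRT5 and SIRT6. The same SIRT5 site was counted for both of that gene's overlapping promoters. NRF1 is known for control of genes of mitochondrial function, and the 3 genes had fold enrichments from 4.25 to 8.82 at a start in replicate 1.

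Genes that work with these enzymes were occupied to a like extent. Among 9 partners of the COMPASS complexes, 8 had a region at a gene end, at a median of 7.72 in replicate 1 and 10.5 in replicate 2, and HCFC1 had none. ASH2L, a core subunit, had 11.7 and 19.1, while WDR5, which anchors the complex, had 5.16 and 11.8. Among 25 genes of other histone methyltransferases and their complexes, which include the non-catalytic subunits EED and SUZ12, 21 had such a region, led by EZH2, the H3K27 methyltransferase, with 12.2 and 24.6, and NSD2, the H3K36 methyltransferase activated by translocation in some myelomas, with 12.4 and 16.8. Among 10 acetyltransferase genes it was 9, with 6.31 and 14.4 at EP300 and 8.99 and 16.1 at KAT7. Among 20 genes of deacetylase corepressor complexes it was 17, led by RBBP7, a histone-binding subunit, with 13.1 and 23.0, and it was 6 of 9 for other Jumonji genes. Each of these counts lay above the 49.8% of all protein-coding genes, as the enzymes' own count did.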

How the data were processed

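IRF3 ChIP was measured in 2 replicates of untreated MM1.S cells. Per the file headers, the authors called peaks with MACS2 2.1.2 (2.1.1 per the submitters' processing notes) for each replicate against its own input, at a q-value limit of 0.05. Those notes list GRCh38, SAMtools 1.2, BWA 0.7.15, deepTools 3.3.1 and Picard 2.6.0, with no roles. The deposited fold enrichment is a ratio, the deposited pileup a signal, and the deposited −log10 p and q values came under damaged column names and were told apart by their order and values. The sources used here do not say whether duplicates or problem regions were removed beforehand.

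Peaks were merged, ranked and assigned to genes in pandas 2.3.3 and numpy 2.4.6 under Python 3.11.15, and the steps were tested on simulated data. A region ranked by the worse of its ranks in the 2 replicates. Genes and starts came from RefSeq GRCh38.p14. Members and lists were chosen with earlier results of these data known. Named genes were the 4 best-ranked of each class, 18 fixed by name, those without an end region, those with peaks of 1 replicate, and the 3 with most regions. Other names were chosen after their values were seen. Alternatives were the window, overlap, q, fold and replicate used. No groups of samples could be compared, so no test was run.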

Additional observations from a re-analysis of the deposited data

How the results depend on the processing

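Of 91 recomputed values over 11 settings, 83 moved by less than the limits set and 8 by more. The limit was a fixed ratio to the main value for counts, and the spread between the replicates' medians for folds. Sizeable moves could stay within it. The members with a shared region in the span plus 1 kb went from 47 to 36 without the 1 kb margin, and to 33 at a fold enrichment of at least 5. With a fold enrichment of at least 5 in both replicates, the members with an end region fell to 24, and those of KDM to 6, SETD to 3 and HDAC to 4. The median fold of the end regions left (geometric mean of the replicates) rose to 12.2 in SETD and 9.62 in HDAC. Weaker peaks had been left out first, so these rises follow largely from the filter itself. Within 500 bp, 3 KMT2 genes were counted. Leaving out either replicate gave 39 to 44 members, and median folds of the SIRT end regions of 8.16 to 12.6. Within 500 bp of a gene end 34 members had a region, and within 5 kb 44. The background by gene length stands beside the counts above. The setting that takes an end or an annotated start was chosen after seeing the data. No paired analysis was possible because the input libraries enter only through the peak calls. With 2 libraries of 1 condition there is no estimate of biological spread, and the depth of the peak calls limits what a gene without a region shows.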
